A study of Homo sapiens with 12 samples.

Results

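The regions described here were open, by the authors' peak calls, in MV4-11 cells and in neither of the other lines. They were chosen by the calls themselves: peaks of all 12 libraries on chromosomes 1 to 22 were merged where they overlapped by at least 1 bp, and a merged region was kept when it held a peak in all 4 MV4-11 libraries and in none of the 8 libraries of MOLM13 and OCI-AML3. This rule kept 6541 of 328658 merged regions, which is 9.59% of the 68242 regions called in all 4 MV4-11 libraries. The remaining 61701 of those, called in at least 1 library of another line, are the other MV4-11 regions below.

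Bulk ATAC-seq, an assay that marks accessible DNA by the insertions of the Tn5 transposase, was done on cryopreserved cells of 3 human acute myeloid leukaemia lines. MV4-11 and MOLM13 carry a rearranged MLL1 (KMT2A) gene, and OCI-AML3 carries mutant NPM1. Each line was given 500 nM VTP50469, a small molecule that blocks the binding of menin to MLL1, for 16 h or was kept as control, with 2 libraries in each of the 6 groups. MV4-11 was grown in IMDM and both other lines in RPMI, each with the same share of serum, so the line and its medium cannot be told apart. Nothing in the labels says that the 2 libraries of a group came from separate cultures.

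Accessible regions away from promoters are mostly enhancers, and they differ between cell types and between tumours far more than promoters do. Promoters of widely used genes tend to be rich in CpG dinucleotides and open in most cells. Genes of C2H2 zinc finger proteins, many of which repress transposable elements, lie in clusters on chromosome 19, and core histone genes lie in clusters on chromosome 6.

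Of the regions called only in MV4-11, those at promoters could be read in sequence. The windows below run from 250 bases before to 50 bases after a start site, are RefSeq sequence on GRCh38.p14 and not that of these cells, and are given 5′ to 3′ with every CpG in capitals. Most of the 296 promoter regions of the set are of other kinds. Those shown were picked from its strongest promoters and are of an antisense RNA and zinc finger genes of chromosome 19, histone genes of chromosome 6, and the imprinted gene MKRN3.
ZNF790-AS1: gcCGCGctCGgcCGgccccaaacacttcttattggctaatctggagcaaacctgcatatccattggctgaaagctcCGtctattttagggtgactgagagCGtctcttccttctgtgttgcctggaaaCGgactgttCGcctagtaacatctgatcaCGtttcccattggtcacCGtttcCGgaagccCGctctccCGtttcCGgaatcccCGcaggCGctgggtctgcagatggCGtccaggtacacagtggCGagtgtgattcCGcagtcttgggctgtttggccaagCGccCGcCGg
ZNF285: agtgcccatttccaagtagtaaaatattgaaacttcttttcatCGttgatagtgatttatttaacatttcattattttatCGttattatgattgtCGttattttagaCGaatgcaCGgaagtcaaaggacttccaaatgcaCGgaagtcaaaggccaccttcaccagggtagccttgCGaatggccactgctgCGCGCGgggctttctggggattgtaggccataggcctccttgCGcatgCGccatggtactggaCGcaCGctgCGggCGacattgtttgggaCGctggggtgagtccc
ZNF829: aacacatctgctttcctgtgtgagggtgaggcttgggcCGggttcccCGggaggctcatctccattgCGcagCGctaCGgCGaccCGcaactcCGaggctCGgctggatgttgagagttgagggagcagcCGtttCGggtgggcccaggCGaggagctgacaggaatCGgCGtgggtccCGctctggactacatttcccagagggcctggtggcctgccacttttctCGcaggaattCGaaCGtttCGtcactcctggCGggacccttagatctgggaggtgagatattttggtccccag
H3C3: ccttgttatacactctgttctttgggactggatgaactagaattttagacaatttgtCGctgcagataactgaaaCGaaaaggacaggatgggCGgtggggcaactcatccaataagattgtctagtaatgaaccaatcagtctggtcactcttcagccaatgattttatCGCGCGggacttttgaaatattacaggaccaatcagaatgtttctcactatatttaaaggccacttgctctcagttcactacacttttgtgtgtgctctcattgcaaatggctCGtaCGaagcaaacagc
H2BC6: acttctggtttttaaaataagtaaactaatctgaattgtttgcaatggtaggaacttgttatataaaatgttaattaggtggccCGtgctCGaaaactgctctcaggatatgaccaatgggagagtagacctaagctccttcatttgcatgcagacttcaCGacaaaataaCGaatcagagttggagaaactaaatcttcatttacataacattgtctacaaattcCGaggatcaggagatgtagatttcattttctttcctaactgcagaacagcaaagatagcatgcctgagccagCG
MKRN3: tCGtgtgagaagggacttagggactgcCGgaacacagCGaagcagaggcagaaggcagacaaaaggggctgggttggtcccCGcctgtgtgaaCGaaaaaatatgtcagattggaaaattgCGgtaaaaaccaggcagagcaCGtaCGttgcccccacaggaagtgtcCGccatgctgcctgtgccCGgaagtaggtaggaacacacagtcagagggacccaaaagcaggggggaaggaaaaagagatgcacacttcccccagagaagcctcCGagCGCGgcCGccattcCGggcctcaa

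The ZNF790-AS1 window (chr19:36797313-36797612, plus strand) held 22 CpGs and 3 matches to CCAAT, the word bound by NF-Y. The ZNF285 window (chr19:44401559-44401858, minus strand) held 17 CpGs, and 200 of its 300 bases lay in the open region. The ZNF829 window (chr19:36915990-36916289, minus strand) held 20 CpGs and the MKRN3 window (chr15:23565424-23565723, plus strand) 15. The histone windows were poorer, with 8 CpGs for H3C3 (chr6:26045134-26045433, plus strand) and 6 for H2BC6 (chr6:26183511-26183810, plus strand). H3C3 held 4 matches to CCAAT, and H2BC6 held 1 match to CCAAT and 1 to the octamer ATGCAAAT, a word known from histone H2B promoters. No 36-base stretch of these 6 windows recurred in another promoter window, whereas 9 of 265 did for ZNF737, so reads there may be shared with a near-identical copy.

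Across the set, 113 promoter windows of 108 genes lay with at least 150 bases in a region called only in MV4-11, against 13721 windows in other MV4-11 regions. They held a median of 15 CpGs, against 27, and a median GC content of 56.3%, against 66.3%. All 33558 windows searched had medians of 14 CpGs and 58.7%, so the windows open only in MV4-11 lay near the average promoter and below those of the other MV4-11 regions. Fewer than 5 CpGs were found in 25.7% of them and in 4.10% of the windows in other MV4-11 regions. At a lowest −log10 q of at least 10 these shares were 6.90% of 29 windows, against 2.61%, with medians of 21 CpGs, against 28. The 20 zinc finger windows of the set had a median of 25.5 CpGs and none under 5, close to those of zinc finger windows in other MV4-11 regions, with a median of 23 and 0.526% under 5. The word GGGCGG, bound by SP and KLF factors, was found on either strand in 30.1% of the windows open only in MV4-11, against 72% in other MV4-11 regions and 45% of all windows. CCAAT was found in 33.6%, against 35.4% and 34.4%. Of the 26 words searched, several were more frequent than in other MV4-11 regions, each in few windows. GAAANNGAA of interferon regulatory factors was found in 13.3%, or 15 windows, against 6.28% and 8.09%, and TTCNNNGAA of STAT factors in 10.6%, against 5.91% and 7.76%. AGATAA of GATA factors was found in 9.73%, against 4.26% and 10.4%, and CTTTGAA of TCF and LEF factors in 6.19%, against 2.38% and 4.46%. GAGGAAGT of PU.1 was found in 6.19%, against 3.09% and 2.58%. TGACAG of MEIS factors was found in 19.5%, against 12.7% and 15.8%, and GGAATG of TEAD factors in 14.2%, against 9.85% and 14.1%. Among words that were less frequent, CNAGNNGGC of CTCF was found in 23.9%, against 33.5% and 24.6%. These shares are descriptions of exact words and say nothing of binding.

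The strength of a peak is given here as −log10 q, the authors' false discovery value of the summit within 1 library, and as the number of reads over the summit, recovered from their fold enrichment and p. Most regions called only in MV4-11 were weak. Their lowest −log10 q over the 4 libraries had a median of 4.31 and ran from 1.3, the authors' limit, to 54.9. It was under 5 in 62.0% of them and at least 20 in 48. At least 20 summit reads in each of the 4 libraries were found in 283. The median over the set was 11 and 11 summit reads in the VTP50469 libraries and 12 and 13 in the control libraries, against 18 and 19, and 19 and 21, in the other MV4-11 regions. The merged regions were also narrower, with a median of 327 bp against 524 bp. The other MV4-11 regions also merge peaks of at least 1 library of another line, so the rule itself bears on width. The median was 354 bp for regions called in all 4 MV4-11 libraries and 1 other library. For regions called in all 12 libraries it was 758 bp. Within a region the libraries were alike to a similar degree in the set and in the other MV4-11 regions. The highest number of reads was a median of 1.67 times the lowest in the set and 1.56 times in the other MV4-11 regions. The 4 summits spanned a median of 76 bp. The first VTP50469 library was the weakest of the 4 in 31.7% of the regions and the second control library in 17.4%.

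Because the rule rests on absence from 8 peak lists, the length of the lists bears on it. MV4-11 lists were longer, with 115819 and 145572 peaks after VTP50469 and 125607 and 132311 in controls, against 68674 to 103111 in the other lines. Median summit reads were 11 to 13 in MV4-11 libraries and 9 or 10 in the others, and no list held a peak with fewer than 3 summit reads, so a region without a call need not be closed. The share of MV4-11 regions that were called only there fell with strength, being 31.7% at a lowest −log10 q under 2, 20.8% from 2 to 5, 9.49% from 5 to 10, 3.07% from 10 to 20, and 0.365% (48 of 13150) from 20 on. The same rule turned to the other lines kept 408 regions for MOLM13 (1.0% of its regions called in all 4 libraries) and 810 for OCI-AML3 (2.71%). When each list was held to its 67424 strongest autosomal peaks, a setting chosen after seeing the data, 2314 regions (5.48%) were called only in MV4-11, 601 (1.72%) only in MOLM13 and 1398 (4.81%) only in OCI-AML3. Of those 2314, 1585 overlapped a region of the set. The part of list length in the difference between lines was not tested beyond this.

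**Figure D1:**
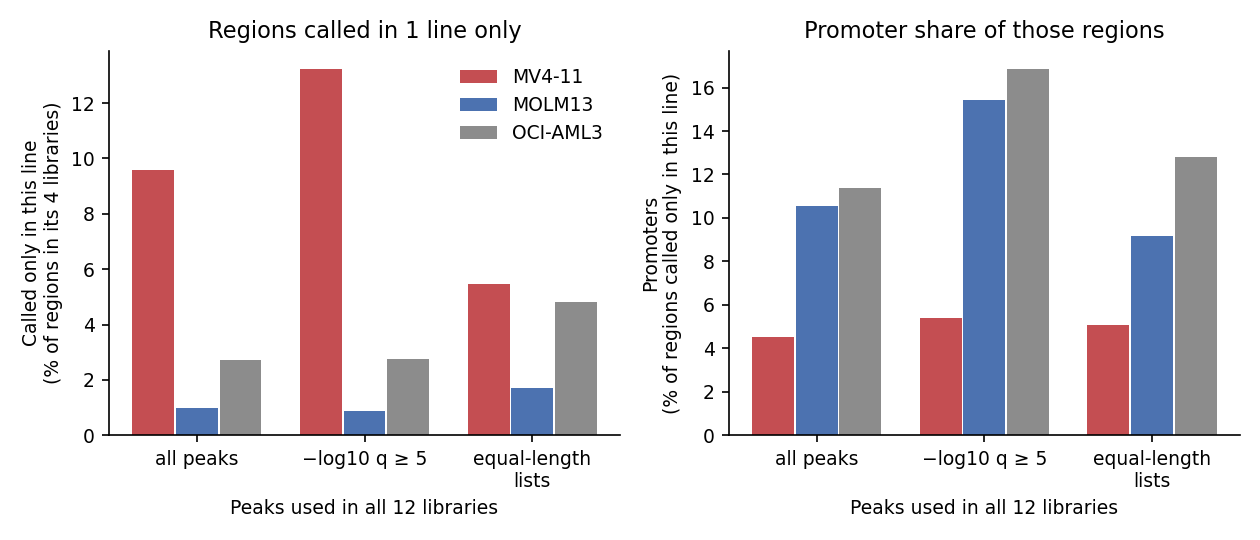
The left panel plots the percent of the regions called in all 4 libraries of a line that were called in no library of another line, and the right panel the percent of those that lay at a promoter, for MV4-11, MOLM13 and OCI-AML3 and for 3 ways of taking the peak lists. MV4-11 stands at 9.59% with all peaks and 5.48% with lists of equal length, and its promoter share is the lowest of the 3 lines in each.

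Regions just outside the rule fell into 2 kinds. Another 4928 regions were called in all 4 MV4-11 libraries and in 1 other library, most often the second VTP50469 library of MOLM13 (1481 regions), where the single peak had a median −log10 q of 3.74 and 7 summit reads. In MV4-11 these regions had medians of 12 and 12 summit reads after VTP50469 and 12 and 14 in controls, and 5.34% lay at a promoter. A further 6920 regions were called in 3 MV4-11 libraries and in no other line, with medians of 9 and 9 summit reads after VTP50469 and 9 and 10 in controls, where called. The weakest region inside the rule lay between genes, 48.7 kb from a start site and nearest to NT5M (chr17:17352033-17352636), with 12 and 7 summit reads after VTP50469 and 16 and 17 in controls. A median of 3.34 kb separated a region of the set from the nearest peak of another line. Such a peak lay within 500 bp of 764 regions (11.7%), and 17.4% of the set had none within 10 kb.

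Of the 15 strongest regions, 6 lay at promoters, 5 of these at zinc finger genes or at RNAs next to them. At the ZNF790-AS1 promoter (chr19:36797164-36797885), the start of an antisense RNA of a zinc finger gene, VTP50469 libraries had 52 and 57 summit reads and controls 58 and 63. The nearest peak of another line was 23.8 kb away. ZFP28-DT (chr19:56538186-56538771), the divergent transcript of the zinc finger gene ZFP28, had 51 and 61 reads, against 59 and 52 in controls. ZNF285 (chr19:44401228-44401758) had 35 and 33 reads, against 38 and 34, and the nearest peak of another line was 75.1 kb away. ZNF737 (chr19:20565345-20566014) had 33 and 28 reads, against 35 and 32, with the nearest other peak 210.1 kb away. The promoter shared by ZNF568 and ZNF829 (chr19:36915900-36916765) had 36 and 31 reads, against 39 and 47. Reads of the VTP50469 and control libraries overlapped at ZFP28-DT, ZNF285 and ZNF737. At ZNF790-AS1 and at the ZNF568 and ZNF829 promoter both treated libraries had fewer reads than both controls. These reads are not adjusted for depth. The fold over background at ZNF790-AS1 overlapped, with 20.2 and 22.1 after VTP50469, against 21.8 and 21.5. At the ZNF568 and ZNF829 promoter it was 14.4 and 13.1, against 15.1 and 16.0. The lncRNA promoter FAM218A (chr4:164956753-164957372) had 37 and 34 reads, against 36 and 31.

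The others of the 15 strongest lay inside or between genes. A region in PLEKHB2 (chr2:131146225-131146812), 40.9 kb from a start site, had 69 and 53 reads after VTP50469 and 69 and 60 in controls, more than any other of the 15 in a single library. A region 24.1 kb from the start of LAMP1, a lysosomal membrane protein (chr13:113272678-113273143), had 52 and 50 reads, against 49 and 54. A region in FOXK2, a forkhead transcription factor (chr17:82603792-82604427), had 39 and 50 reads, against 39 and 37. A region between genes, 9.13 kb from DYRK1B, a protein kinase (chr19:39824236-39825035), had 47 and 39 reads, against 37 and 43. A region in CENPU, a centromere protein (chr4:184705639-184706031), had 27 and 35 reads, against 32 and 41. The remaining 4 lay near LINC03024 and in LINC02917, LOC105376107 and LINC02006, with 28 to 47 reads in any library. Of all 15, 4 had a peak of another line within 1 kb, for example a MOLM13 peak with 8 summit reads 0.861 kb from the PLEKHB2 region.

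**Figure D2:**
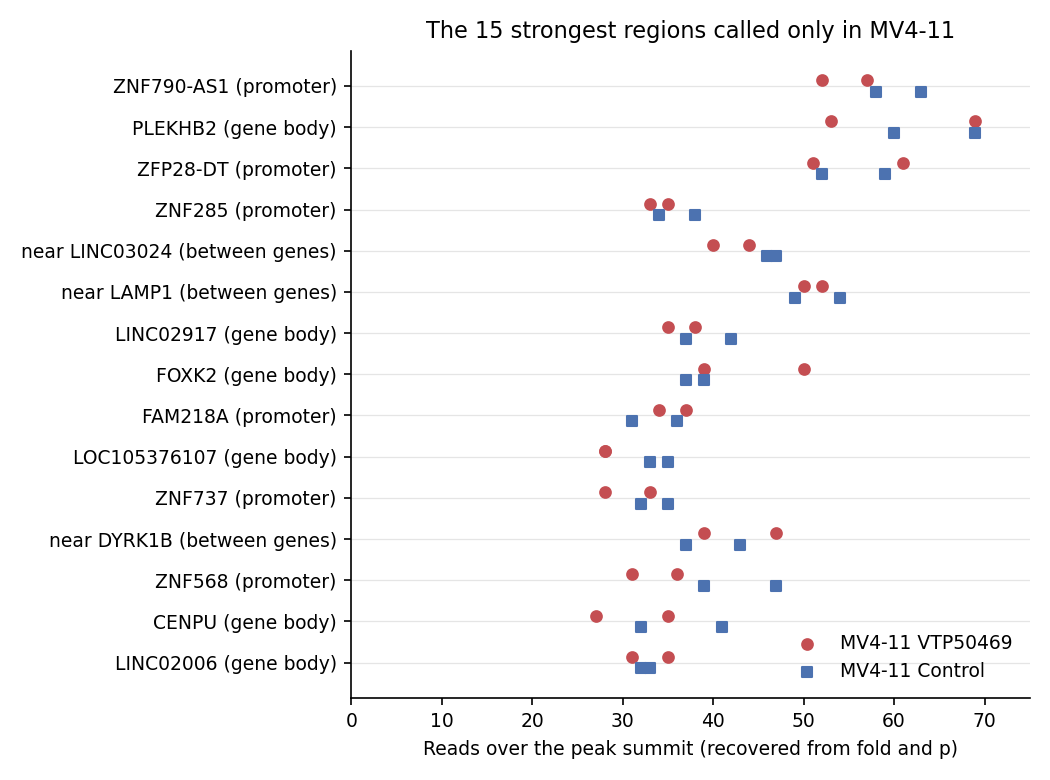
Reads over the peak summit of the 15 strongest regions called only in MV4-11, ranked from the top by their lowest −log10 q, in the 2 VTP50469 libraries (circles) and the 2 control libraries (squares). Values run from 27 to 69 reads and are not adjusted for depth. Both treated libraries lie below both controls at ZNF790-AS1, LINC03024, LOC105376107 and ZNF568. In the other regions they overlap or touch, and in none do both treated libraries lie above both controls.

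Promoters made up a small part of the set. A region was placed at a promoter when it came within 1 kb of the start site of a protein-coding or lncRNA gene, which held for 296 regions (4.53%), 192 of them at protein-coding and 104 at lncRNA genes, against 22.4% of the other MV4-11 regions. Among regions called only in MOLM13 and only in OCI-AML3 the share was 10.5% and 11.4%, and of the 22845 regions that every library called 45.1% were promoters. The median distance to a start site was 26.6 kb, against 15.5 kb, and 32.2% of the set lay over 50 kb from any start site, against 22.5%. This distance was not particular to MV4-11. Regions called only in MOLM13 had a median of 26.4 kb and 33.8% over 50 kb, and those only in OCI-AML3 32.0 kb and 36.9%. Gene bodies held 64.3% of the set, against 69.3% of the other MV4-11 regions, and without promoter regions 60.5%, against 47.7%. The difference from the other MV4-11 regions was present at each strength. At a lowest −log10 q of 5 to 10 the promoter share was 4.30%, against 11.5%, at 10 to 20 it was 4.78%, against 19%, and from 20 on it was 22.9% (11 of 48 regions), against 56.2%.

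**Figure D3:**
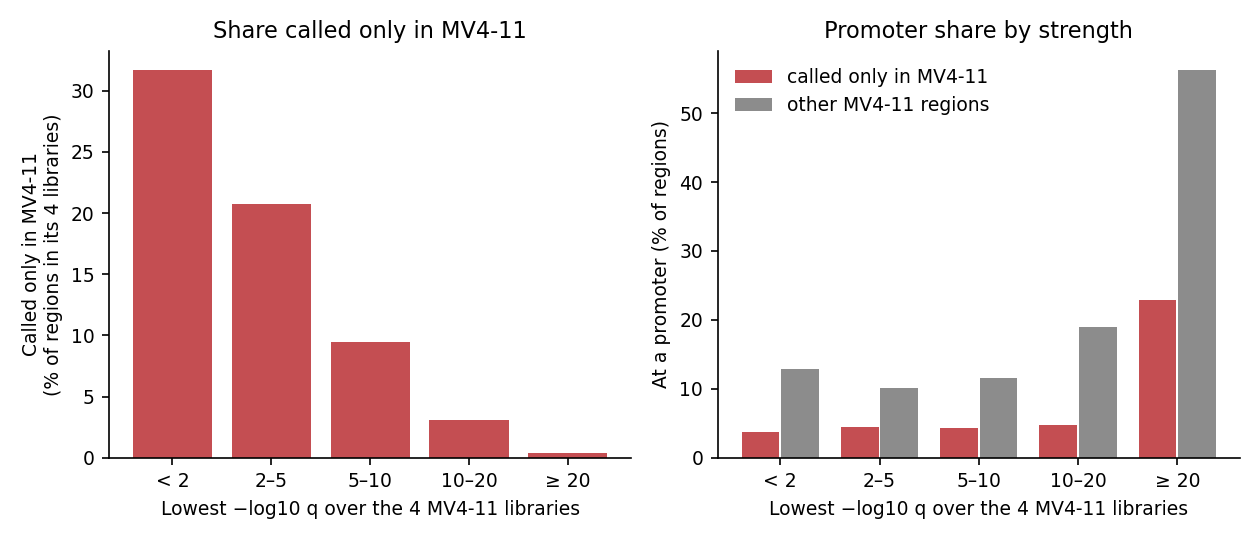
The left panel plots the percent of MV4-11 regions that were called only in MV4-11, and the right panel the percent at a promoter, for bins of the lowest −log10 q over the 4 MV4-11 libraries. The share called only in MV4-11 is 31.7% in the weakest bin and 0.365% in the strongest, and its promoter share is below that of the other MV4-11 regions in all 5 bins.

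The 10 strongest promoters of protein-coding genes were 5 zinc finger promoters, 3 histone promoters, MKRN3 and CBLN1. The histone genes, whose proteins package DNA and are made during replication, were H3C3 (chr6:26045154-26045796) with 46 and 47 summit reads after VTP50469 and 52 and 52 in controls, H2BC6 (chr6:26183471-26183878) with 30 and 45, against 30 and 41, and H2BC3 (chr6:26043303-26044356) with 51 and 60, against 57 and 44. Peaks of other lines lay 9.20 kb from H3C3 and 4.49 kb from H2BC6, the second with 53 summit reads in a MOLM13 library. MKRN3, a gene expressed from the paternal allele (chr15:23565377-23566607), had 27 and 31 reads, against 33 and 39. CBLN1, which encodes a secreted organiser of synapses (chr16:49281708-49282605), had 38 and 37 reads, against 28 and 41. ZNF606 (chr19:58002272-58003090) had 28 and 30 reads, against 32 and 42, and ZNF256 (chr19:57947327-57948015) had 32 and 42, against 27 and 39.

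Zinc finger promoters, singled out after their values were seen, made up 21 of the 192 protein-coding promoters of the set (10.9%) and 441 of the 12398 called in all 4 MV4-11 libraries (3.56%). Put the other way, 4.76% of the zinc finger promoters open in MV4-11 were open only there, against 1.55% of all protein-coding promoters, and 16 of the 21 lay on chromosome 19. At a lowest −log10 q of at least 10 it was 9 of 357 (2.52%), against 22 of 9317 (0.236%). Of the protein-coding promoters called only in OCI-AML3, 14 of 70 (20.0%) were of zinc finger genes, and of those called only in MOLM13, 1 of 32 (3.13%). Core histone promoters were 4 of 47 (8.51%), H2BC17 (chr6:27894388-27894588) being the fourth. No test was made of these shares, since both groups were picked from the calls that chose the set.

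By chromosome, the share of MV4-11 regions called only in MV4-11 was lowest on chromosomes 19 (7.12%) and 6 (7.14%) and highest on chromosomes 9 (12.3%) and 21 (13.0%). The low share on chromosomes 19 and 6 stood beside the strongest zinc finger and histone promoters of the set.

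Away from promoters, some long genes held several regions of the set. How many an even spread over loci of their length would give was not tested. Over all MV4-11 regions, 9.59% were called only in MV4-11. A locus was taken as the gene with 5 kb on each side. Of 15824 protein-coding loci with an MV4-11 region, 3091 held at least 1 region of the set and 212 held at least 3, and 41.7% of the set lay in no protein-coding locus, against 35.5% of the other MV4-11 regions. AUTS2, a neurodevelopmental gene whose protein acts with Polycomb complexes, had most, with 11 of its 15 MV4-11 regions called only there. Their summit reads ran from 5 to 25 over the 4 libraries, with a median of 10.5, and the strongest (chr7:69739793-69740262) had 16 and 19 reads after VTP50469 and 20 and 25 in controls. The AUTS2 locus held 27 to 42 peaks in MV4-11 libraries, 4 to 6 in MOLM13 and 4 to 10 in OCI-AML3.

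ARHGAP10 had 8 of 21, as had SHANK2, a synaptic scaffold, and FHIT, a gene that spans a common fragile site, had 8 of 25. AFF3, a nuclear protein of the family that holds the MLL fusion partner AFF1, and the exchanger gene SLC24A3 had 7 of 19, the kinesin gene KIF26B 7 of 22 and CNTNAP2, a neuronal adhesion gene, 7 of 31. GALNT10, a glycosyltransferase, had 6 of 12, NEBL 6 of 13, CTIF, a translation factor, 6 of 18, and the readthrough locus ZNF664-RFLNA 6 of 19. None of the regions of the set in these 12 loci lay at a promoter. CNTNAP2 differed from the rest in its peak counts. It held 55 to 67 peaks in MV4-11 libraries, 21 to 37 in MOLM13 and 58 to 86 in OCI-AML3. In the other 11 loci every OCI-AML3 library had fewer peaks than any MV4-11 library. The 12 loci were picked for their regions called only in MV4-11, and MV4-11 lists were longer throughout. Both bear on the peak counts of these loci, AUTS2 included.

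**Figure D4:**
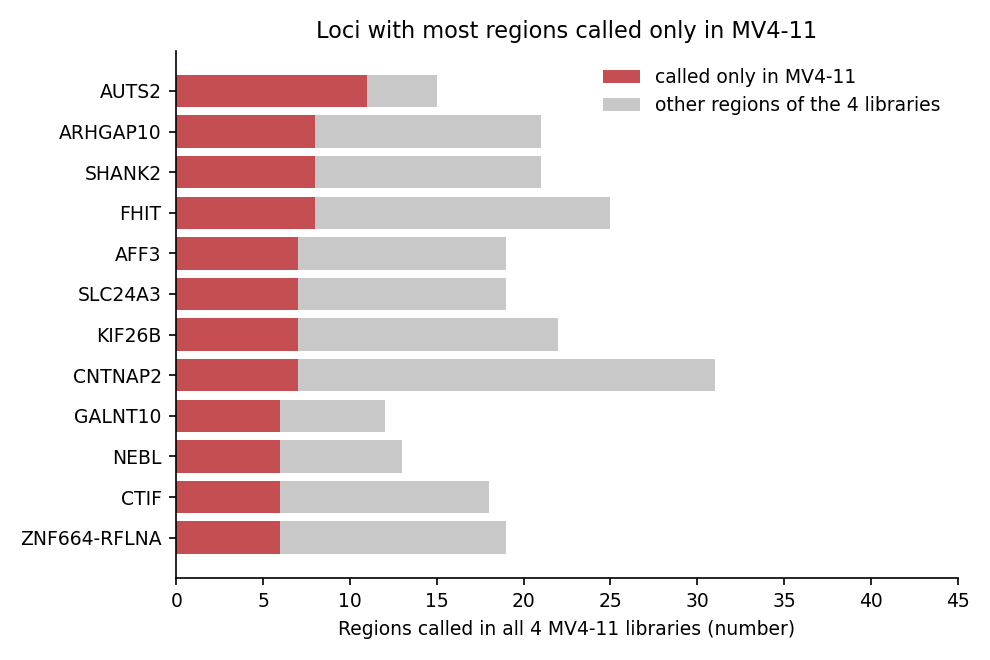
Number of regions called in all 4 MV4-11 libraries in the 12 protein-coding loci with most regions called only in MV4-11 (red), with the other MV4-11 regions of the locus in grey. AUTS2 has 11 of 15 and is the only one of the 12 in which most regions were called only in MV4-11, GALNT10 having 6 of 12.

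Regions of the set also stood in rows. The median distance from a region to the next of the set was 88.8 kb, and 34.6% had another within 50 kb. In 4829 places a single region of the set stood between other MV4-11 regions, and 760 rows held 2 or more in succession. How many rows an even spread of the set over the MV4-11 regions would give was not tested. No such distances were taken for the other MV4-11 regions. The longest row, 9 regions over 673.8 kb of chromosome 1 (chr1:4655837-5329628), began in AJAP1, an adherens junction gene. It ran on beyond that gene, through LINC02782, to a region 151.7 kb from the start of LOC107984911. Over the whole row MV4-11 libraries had 16 and 20 peaks after VTP50469 and 14 and 13 in controls, MOLM13 had 0 to 1 and OCI-AML3 2 to 5. A row of 8 lay at TTC34, ACTRT2 and PRDM16, a transcription regulator of stem cells (chr1:2788969-3171391, 382.4 kb), with 15 to 23 peaks in MV4-11, 0 or 1 in MOLM13 and 0 to 2 in OCI-AML3. The other row of 8 was in AUTS2 (chr7:69825090-70679054), with 11 to 26 peaks in MV4-11, 0 in each MOLM13 library and 2 to 5 in OCI-AML3. Rows were picked as runs of regions without a peak in another line. The low counts of MOLM13 and OCI-AML3 over these rows thus follow largely from that choice.

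Genes of haematopoietic lineages and of MLL fusion biology were followed in 14 lists of 181 genes. Their loci held 641 MV4-11 regions, of which 50 (7.80%) were called only in MV4-11, in 38 genes, beside 9.59% of all MV4-11 regions. The share differed between lists, though each rests on few regions.

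B lineage loci held 9 of 51. PAX5, which commits cells to the B lineage, had 2 of its 11 MV4-11 regions in the set, both in its body. Of these, chr9:36877305-36877654 had 11 and 14 summit reads after VTP50469 and 16 and 22 in controls. EBF1, an early B cell factor, had 2 of 10 (chr5:158898590-158898971, 12 and 14 reads, against 14 and 14). BLK, a B cell tyrosine kinase on chromosome 8, had 2 of 5, with 15 to 29 reads. BLNK, an adaptor of the B cell receptor, the Ikaros gene IKZF1 and its relative IKZF3 had 1 each. At the promoters of 5 B cell markers, 2 and 3 were called after VTP50469 and 3 and 3 in controls of MV4-11, against 1 to 4 in MOLM13 and 0 or 1 in OCI-AML3. Myeloid markers were called at 7 or 8 of 8 promoters in MV4-11 and at 5 to 7 in the other lines. T cell markers were called at 1 or 2 of 5 promoters in MV4-11 and in MOLM13 libraries, and at 1 in each OCI-AML3 library. Erythroid markers were called at 0 of 5 in all libraries except the second VTP50469 library of MOLM13, with 1.

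MHC class II loci held 4 of 25, all in CIITA, the master activator of MHC class II genes. They lay 8.90 to 31.0 kb from a start site. The region chr16:10886788-10887335 had 17 and 15 reads, against 23 and 19, and chr16:10933091-10933573 had 16 and 16, against 17 and 16. Stem and progenitor loci held 10 of 88. MSI2, which binds RNA in stem cells, had 4 of 24. The strongest of the 4 by reads (chr17:57408429-57408800) had 13 and 13 reads after VTP50469 and 24 and 20 in controls, not adjusted for depth. In the VTP50469 comparison described below, the shift of this region was −0.77 (SE 0.42, adjusted p = 0.792, limma). ERG, ETV6, HLF, KIT, MECOM and SPINK2 had 1 each. ERG, a transcription factor of stem cells (chr21:38476352-38476756), had 8 and 12 reads, against 9 and 20.

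MLL fusion target loci held 11 of 162, in 9 of 20 genes. TCF4, a basic helix-loop-helix factor, and IGF2BP2, an RNA-binding protein, had 2 of 12 each. A region 4.43 kb from the start of MYB, a progenitor transcription factor (chr6:135176600-135176874), had 22 and 14 reads, against 21 and 20, and a region in RUNX1, a core haematopoietic factor (chr21:34911437-34911609), had 17 and 21, against 21 and 20. BCL2, EYA1, JMJD1C, RUNX2 and SENP6 had 1 each. The HOXA cluster held 0 of 11. The HOXB cluster held 2 of 9, at the HOXB7 promoter (chr17:48610839-48611111), with 14 and 11 reads, against 10 and 15, and at the promoter of the lncRNA HOXB-AS4 (chr17:48628715-48628857), inside the 5 kb beside HOXB9, with 8 and 15, against 9 and 8.

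Monocyte and granulocyte loci held 2 of 63, in CD86 and in the 5 kb beside CD68, where the region lay in MPDU1-AS1 (chr17:7582138-7582327, 26 and 24 reads, against 20 and 31), primary granule loci 0 of 11 and housekeeping loci 0 of 22. Cytokine receptor loci held 4 of 69, at IL1R1, IL1R2, IL1RAP and CSF2RB. T and NK loci held 2 of 38, both among the 3 MV4-11 regions of CD5. Wnt loci held 3 of 29, with 2 of 11 at TCF7L2 and 1 at the MYCN promoter. AP-1 loci held 1 of 44, at MAF, and megakaryocyte and erythroid loci 2 of 22, at VWF and EPOR.

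The comparison of VTP50469 with control asked whether regions open only in MV4-11 changed in strength when menin was blocked. The rule asked for a peak in all 4 MV4-11 libraries, so a region that lost or gained its peak after VTP50469 could not be in the set, and the shifts below cover only regions called in both groups. Without a peak in another line, 1961 further regions were called in both VTP50469 libraries and neither control (median −log10 q of 3.94) and 2680 in both controls and neither VTP50469 library (4.43), which were not tested. For each of the 68242 regions the fold enrichment of the strongest peak was ranked within its library and turned into normal scores, and limma gave the treated minus control shift in these scores. No region of the set passed an adjusted p of 0.05, nor did any of the 68242 (0%; smallest adjusted p = 0.737, limma). At an unadjusted p of 0.05, 267 regions of the set (4.08%) were higher after VTP50469, where 3.0% of all tested regions were higher, and 375 (5.73%) were lower, where 3.58% were lower. The median shift of the set was −0.031, with quartiles of −0.45 and 0.36, and that of all tested regions was 0.019, with quartiles of −0.33 and 0.34. Both medians were small beside these quartiles.

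Strength moved with these counts. Among regions with a lowest −log10 q under 5, 5.35% of the set were higher and 7.54% lower, against 6.13% and 7.97% of the other MV4-11 regions. From 5 to 10 the shares were 2.28% and 2.88%, against 2.97% and 2.91%. At 10 or more, 5 and 12 of 508 were higher and lower (0.984% and 2.36%), against 1.05% and 1.1%. Within the lower 2 bands the set thus had no larger share in either direction than the other MV4-11 regions.

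**Figure D5:**
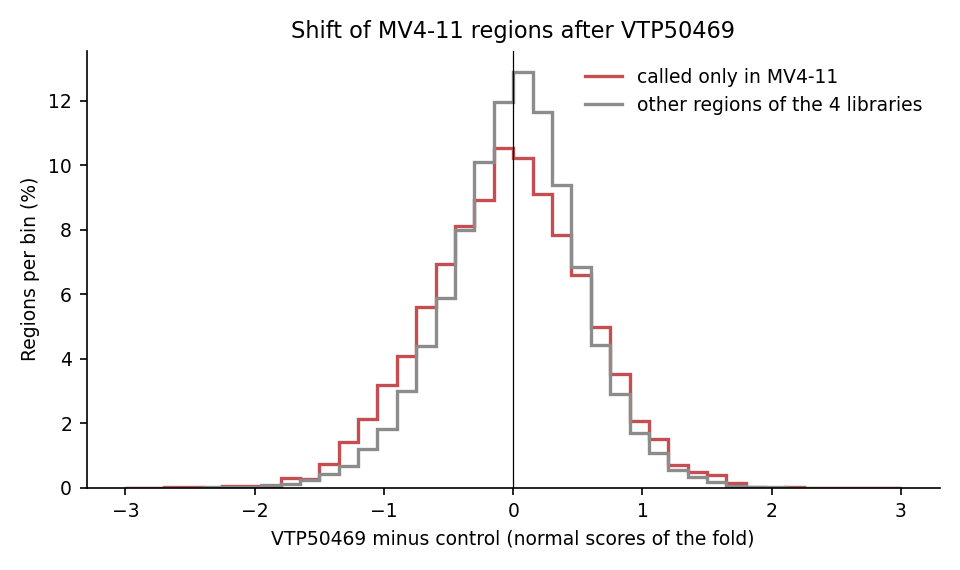
Distribution of the VTP50469 minus control shift, in normal scores of the fold, as percent of regions per bin of 0.15, for regions called only in MV4-11 (red) and the other MV4-11 regions (grey). Both curves are centred near 0, with medians of −0.031 and 0.024, and the red curve is wider, with 9.83% of regions beyond 1 in either direction, against 6.04%.

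The regions of the set with the smallest p are given as values, since none passed. In MED12L, a relative of a Mediator subunit (chr3:151093964-151094244), the fold was 8.4 and 9.21 after VTP50469 and 3.94 and 3.91 in controls (13 and 14 reads, against 6 and 6), a shift of 2.25 (SE 0.39, adjusted p = 0.737, limma). In IL1R1, the receptor of interleukin 1 (chr2:102155919-102156151), it was 11.2 and 12.3, against 6.13 and 4.83 (21 and 24 reads, against 10 and 8), a shift of 1.83 (SE 0.42). The regions in CEP78, a centrosomal protein (chr9:78248733-78248917, shift 1.70, SE 0.39), and near MRPS18A, a mitochondrial ribosomal protein (chr6:43704098-43704373, shift 1.66, SE 0.39), completed the higher 4. In all 4 both treated libraries had a higher fold than both controls, which their choice by smallest p nearly fixed.

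The lowest was a region between genes, 123.3 kb from LOC105378783 (chr1:68780654-68781390), with a fold of 4.73 and 4.57 after VTP50469 and 13.9 and 13.2 in controls (9 and 9 reads, against 38 and 36), a shift of −2.57 (SE 0.39, adjusted p = 0.737, limma). In ECPAS, a proteasome adaptor (chr9:111431613-111431941), the fold was 4.20 and 3.68, against 8.41 and 10.8, a shift of −2.23 (SE 0.41). The regions near LOC105378477 (chr10:108469960-108470294) and in NDUFAF6, an assembly factor of respiratory complex I (chr8:95078052-95078391), had shifts of −1.97 (SE 0.39) and −2.0 (SE 0.41). None of these 8 lay at a promoter.

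Shifts of the 15 strongest ran from −0.40 to 0.59 and those of the 10 strongest protein-coding promoters from −0.62 to 0.50, and none of either had an unadjusted p under 0.05. Of the 50 regions in the listed loci, 6 (12%) were higher and 3 (6%) lower at that level, beside 4.08% and 5.73% of the set and 3.0% and 3.58% of all tested regions. The higher were in or near SENP6 (1.6), TCF4 (1.15), BCL2 (0.92), CD5 (1.08), EPOR (1.20) and IL1R1, and the lower in PAX5 (−1.10), MSI2 (−1.07) and HLF (−0.96), where the smallest adjusted p of the 9 was again 0.737 (limma).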

How the data were processed

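ATAC-seq of 12 libraries (3 lines, control or 500 nM VTP50469 for 16 h, 2 libraries per group) was analysed. Per the labels, the authors trimmed reads with Trimmomatic 0.33 after bcl2fastq 2.17, aligned them to hg38 with Bowtie 1.1.2 and called peaks with MACS2 2.1.0, although the supplementary methods name another aligner. Peak settings and the handling of duplicates and multiply mapped reads are not given in the sources used here. Peaks were called by the authors in each library separately. For each peak the authors gave a score, which is 10 times its −log10 q cut to a whole number, and as a ratio the fold enrichment of summit reads over local background. The deposited −log10 p-value and the deposited −log10 q-value belong to that summit, and its offset from the peak start is in bp. No values were normalised between libraries by the authors.

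Sequencing totals are unknown. Summit reads were recovered as the whole number that met both fold (pseudocount 1) and Poisson −log10 p within 0.001, which held for at least 99.98% of peaks of a library. These reads are not independent molecules. Protein-coding and lncRNA start sites came from RefSeq on GRCh38.p14, with strand from GENCODE by symbol where RefSeq promoters gave none, and 5717 genes without a strand were left out. Exons were not used here. Regions were named for the promoter gene, else the gene that holds them, else the nearest start site, with protein-coding genes first.

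Normal scores were tested with limma 3.58.1 in R 4.3.3 (moderated, two-sided, Benjamini-Hochberg over 68242 regions), on ranks because the read-based method of the study needs reads. P-values measure only the spread between these libraries. Other values are descriptions without a test. On simulated data of this comparison with 68242 regions, 3, 21, 48 and 50 of 50 regions shifted by 1, 2, 3 and 4 were recovered, beside 5 false calls. Simulated regions of similar strength shared a common noise level, which real regions need not do. These counts may thus overstate what the comparison itself could recover. Tables were handled with pandas 2.3.3.

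The set, the 14 lists and the words were chosen with earlier results of these data known. Named regions were the 15 strongest by lowest −log10 q, the 10 strongest at protein-coding promoters, the 12 loci with most regions and the longest 3 rows. The 4 higher and 4 lower regions of smallest p were also named. Up to 4 genes per list were planned, but further listed genes with regions of the set are named too. Alternatives were other merging, thresholds, promoter widths, scales, a replicate block and leaving out each library.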

Additional observations from a re-analysis of the deposited data

How the results depend on the processing

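The number of regions called only in MV4-11, 6541 as reported, was 2484 with a −log10 q of at least 5 asked of MV4-11 alone and 2314 with lists of equal length, and stayed within 1.5 times of the reported number under the other alternatives tried. Leaving out 1 library gave 6737 to 9288. With a −log10 q of at least 5 in all 12 libraries the number was 6478, but only 2483 of them overlapped a region of the set, since the higher limit also removed weak peaks of the other lines. The promoter share of the set was 3.15% within 500 bp of a start site, 8.48% within 2.5 kb and 2.94% with protein-coding genes only, against 20.7%, 26.2% and 19.8% of the other MV4-11 regions, and without 1 MV4-11 library it was 4.77% to 4.85%. The 50 regions in listed loci became 14 with a −log10 q of at least 5 in MV4-11 and 10 within 5 kb of a start site. After VTP50469, no region of the set passed an adjusted p of 0.05 in limma under any alternative. At an unadjusted p of 0.05 there were 642 (267 higher, 375 lower), and without 1 library 528 to 743 (249 to 283 higher, 279 to 461 lower). The median shift without 1 library ran from −0.053 to −0.014. The 8 regions named for their shift kept their direction in each of 8 alternative settings, which their choice by smallest p nearly fixed. The replicate numbers of control and treated libraries were not shown to pair them, the replicate differences having a correlation of 0.020 over regions, and with the number as a block 715 regions passed the unadjusted level. Motifs in regions away from promoters were not searched, because no genome of the build of the files was used here. Depth was low: regions with fewer than 10 summit reads in a library made up 23.1% to 34.3% of the set.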
